A study of Mus musculus with 27 samples.

Results

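The smooth muscle contractile genes were 10 named genes, *Acta2*, *Tagln*, *Cnn1*, *Myl9*, *Myh11*, *Cald1*, *Tpm2*, *Lmod1*, *Actg2* and *Smtn*. They were chosen by name as markers of smooth muscle and contractile mesenchyme, and they are 10 of the 25209 genes listed in each of 8 expression tables. The tables hold mRNA-seq of V6.5 mouse embryonic stem cells (mESCs) and of 2 *Zfp512b* knockout (KO) clones, #4 and #8, compared with wild type (WT). *Zfp512b* encodes ZNF512B, a zinc finger protein that binds the NuRD chromatin remodelling complex. Each KO is 1 clone, made by inserting a transcription terminator with an mCherry or a puromycin resistance cassette after exon 3, while WT cells had been neither edited nor selected. Naïve cells were sampled on Day 0 in 2iLIF medium (N2B27 with LIF, a MEK inhibitor and a GSK3 inhibitor), with 3 libraries per group. The other stages had 2 libraries per group. Primed cells were taken on Day 2 in serum with LIF, and cultures directed to cardiomyocytes (CMs) were taken on Day 7.5 from hanging-drop embryoid bodies with vitamin C. Embryoid bodies treated with 5 µM retinoic acid gave the neural progenitor cells (NPCs) of Day 10. In all, 27 libraries were analysed.

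Smooth muscle cells contract when myosin pulls on actin filaments, after phosphorylation of the regulatory light chain. *Acta2* and *Actg2* encode the smooth muscle α- and γ-actin, *Myh11* the smooth muscle myosin heavy chain and *Myl9* a regulatory light chain. *Tpm2* (β-tropomyosin), *Cald1* (caldesmon), *Cnn1* (calponin), *Tagln* (transgelin), *Smtn* (smoothelin) and *Lmod1* (leiomodin) bind actin filaments and regulate, bundle or nucleate them. Most of these genes respond to serum response factor (SRF), which binds CArG boxes together with myocardin (*Myocd*) or its relatives MRTF-A (*Mrtfa*) and MRTF-B (*Mrtfb*). *Myh11* is the most restricted to smooth muscle. *Acta2* and *Tagln* are also made in early embryonic heart muscle and in myofibroblasts, and *Cald1*, *Tpm2* and *Smtn* have forms used by many cell types.

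The promoters of *Acta2* and *Myl9* are shown. Among the 7 members with a promoter sequence, they were the ones holding a CArG box near the transcription start. RefSeq promoters (GRCm38.p6, 250 bases before the start to 50 after it) were found for 7 of the 10 members. *Tagln*, *Myh11* and *Actg2* had none and were not searched. A CArG box was searched on both strands as CC, then 6 bases that are A or T, then GG. This strict form was in 1 of the 7 genes, *Myl9* (1 of the 8 promoters of these genes), and in 1.63% of all 32851 promoters. A looser form allowed at most 1 of the 6 middle bases to be G or C, which takes in the strict form. Such boxes were found in 2 of the 7 genes (2 of their 8 promoters) and in 9.98% of all promoters. Capitals mark the boxes of either form. The *Acta2* promoter lies on the minus strand at chr19:34255324-34255623, and its boxes begin 84 and 34 bases before the start. The *Myl9* promoter lies on the plus strand at chr2:156775214-156775513, with the strict box beginning 161 bases before the start and the other 99 bases before it. A match describes the letters only, and no binding was measured.
Acta2: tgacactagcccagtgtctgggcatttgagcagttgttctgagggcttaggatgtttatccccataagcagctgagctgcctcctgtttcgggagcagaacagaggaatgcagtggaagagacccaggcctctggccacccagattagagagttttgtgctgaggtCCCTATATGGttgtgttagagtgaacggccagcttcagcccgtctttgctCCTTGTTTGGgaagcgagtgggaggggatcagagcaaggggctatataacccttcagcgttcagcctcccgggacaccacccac
Myl9: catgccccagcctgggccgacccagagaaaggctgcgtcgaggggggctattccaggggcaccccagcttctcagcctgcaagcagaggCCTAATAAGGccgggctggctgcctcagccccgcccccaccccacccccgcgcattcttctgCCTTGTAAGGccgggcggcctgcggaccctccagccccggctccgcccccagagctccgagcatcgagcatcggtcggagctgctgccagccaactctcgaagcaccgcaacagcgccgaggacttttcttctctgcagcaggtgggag

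In an mm9 gene annotation, which may differ from the one the authors counted with, the members were spread over 8 chromosomes. Exon lengths used for levels per kb came from the same annotation. *Acta2* occupies chr19:34315580-34329826 on the minus strand with 9 exons, *Tagln* chr9:45737711-45744141 on the minus strand with 5 exons, and *Cnn1* chr9:21903725-21914074 on the plus strand with 7 exons. *Myl9* lies at chr2:156601156-156607394 on the plus strand, and *Myh11* at chr16:14194620-14291501 on the minus strand. *Cald1* (chr6:34548500-34725473, plus strand) and *Actg2* (chr6:83462899-83486259, minus strand) share chromosome 6. *Tpm2* lies at chr4:43527583-43536637 on the minus strand, *Lmod1* at chr1:137221384-137264642 on the plus strand, and *Smtn* at chr11:3417526-3440615 on the minus strand. Exonic reads of the whole gene were counted, so isoforms of a gene cannot be told apart.

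Library depth on genes was 15.1 to 39.6, in units of 1000000 reads. The tables give a mean normalized read count per gene and not values per library, so the whole reads of each library were recovered from the 2 means of a stage, where a single solution existed. Libraries are therefore numbered here without a link to the submitters' replicate numbers, and nothing states that they came from separate cultures, so the p-values measure the spread between these libraries. Between replicate libraries the chi-square per degree of freedom was 1.77 to 10.2 over the 18 pairs, highest for the 2 NPC libraries of KO #8. It was 1.77 to 2.47 in naïve cells and 2.07 to 2.23 in primed cells. Both mates of a read pair appear to have been counted, which raises this value by itself. The naïve and primed values may therefore hold no spread beyond sampling noise. *Zfp512b* itself checked the labels. In primed cells its normalized reads were 929 and 977 in WT, 191 and 219 in KO #4, and 184 and 154 in KO #8. In CMs they were 1117 and 1061 in WT, 184 and 209 in KO #4, and 155 and 173 in KO #8. Both clones were below WT in these stages, while *Zfp512b* reads of naïve cells and NPCs were not recovered.

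Expression of the smooth muscle genes was highest in the CM cultures. Summed over the 10 members, the authors' mean in the CM tables of KO #4 and KO #8 was 2154 and 2409 ppm (parts per 1000000 of a table's sum). It was 460 and 468 ppm in the NPC tables, 106 and 104 ppm in the primed tables, and 113 and 118 ppm in the naïve tables. The CM sum was thus 4.69 and 5.15 times the NPC sum. Each mean pools WT with 1 clone and has no replicate error, and tables were normalized separately. *Acta2*, the actin of smooth muscle, made up 42% and 47.4% of the CM sum. Its mean was 904 and 1142 ppm in the CM tables, 34.8 and 44.5 in the NPC tables, 1.36 and 1.14 in the primed tables and 0.0139 and 0.0233 in the naïve tables. *Acta2* therefore had the same order of stages in both sets of tables. *Tagln* reached 354 and 357 ppm in CMs, against 15.9 and 23.5 in NPCs.

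The members did not share 1 profile over the stages. *Cald1* was already at 64.9 and 70.3 ppm in naïve cells, was lower in primed cells at 26.1 and 24.4, and reached 629 and 637 in CMs. *Smtn* was the flattest member, with a CM mean 2.22 and 2.37 times its naïve mean. *Cnn1* was not above its primed level in NPCs (NPC to primed ratios of 0.621 and 0.952), but its CM mean was 32.6 and 19 times its NPC mean. *Actg2* was listed at 0 in both naïve tables. *Myh11*, the gene most restricted to smooth muscle, stayed low in every stage, at 0.934 and 1.71 ppm in CMs. Per kb of exon, the *Myh11* level in CMs was 0.141 and 0.258 ppm, compared with 508 and 642 for *Acta2*.

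**Figure D1:**
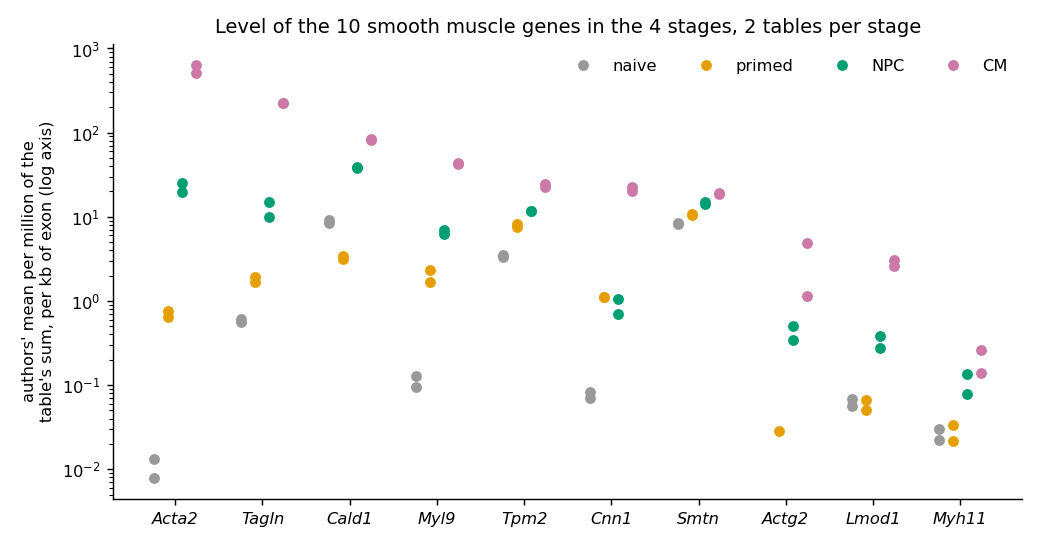
Level of each smooth muscle gene in naïve cells, primed cells, NPCs and CMs, as the authors' mean in ppm of a table's sum and per kb of exon, on a log axis; the 2 points per stage are the KO #4 and KO #8 tables. *Acta2* spans the widest range and reaches 508 and 642 in CMs, whereas *Smtn* changes least.

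In WT libraries, levels per kb of exon could be ordered with their spread. They are normalized reads in ppm of the stage's mean table sum, put on 1 scale, per kb. In NPCs, where *Cald1* and *Smtn* were not recovered and have no place in the order, *Acta2* led the 8 recovered members with 26.1 to 35.7, followed by *Tagln* (15.1 to 16.8), *Tpm2* (11.2 to 13.2), *Myl9* (6.22 to 7.78) and *Cnn1* (0.866 to 1.07). The ranges of the 2 WT libraries did not overlap between these neighbours. In the authors' means, *Cald1* was at 38.7 and 37.6 per kb in the NPC tables, above *Acta2* at 19.5 and 25. Among the recovered members, *Actg2* (0.289 to 0.439) and *Lmod1* (0.186 to 0.472) could not be ordered, and *Myh11* was last at 0.0563 to 0.102. In primed cells the order began with *Smtn* (10.2 to 11), *Tpm2* (7.43 to 7.63) and *Cald1* (3.65 to 3.73). *Myl9* (1.4 to 2.09) and *Tagln* (1.27 to 2.01) overlapped, as did *Tagln* and *Cnn1* (0.884 to 1.34), and *Cnn1* and *Acta2* (0.991 to 1.07), so these neighbours could not be ordered, although *Acta2* lay below *Myl9* and *Tagln*.

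How far the members could be tested depended on their level. A recovered gene was tested when its mean over the libraries of the stage was at least 10 normalized reads, using limma on log2(normalized reads + 1) over all recovered genes, and called at an adjusted p under 0.05. Reads were recovered for 10 members in primed cells (7 tested), for 8 in NPCs (8 tested), for 6 in naïve cells (1 tested) and for 3 in CMs (3 tested). In CMs 5 members were above the level at which reads can be recovered and 2 had several solutions, so the 3 tested CM members are the low ones and do not stand for all 10. Both comparisons of a stage share the same WT libraries. In these bulk samples, fewer smooth muscle cells and less RNA per cell cannot be told apart.

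In NPCs, *Acta2* and *Tagln* were lower in KO #4 than in WT. Of the 8 tested members, 2 fell and 6 were not called in KO #4, against a background of 7.35% of all 8377 tested genes called in either direction. The median log2 change of the 8 was -0.36, compared with -0.02 over all tested genes. In KO #8, 1 of the 8 was called, *Acta2*, where the background was 11.5%, and the median was -0.06.

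*Acta2* had 1067 and 778 normalized reads in the WT NPC libraries, 262 and 236 in KO #4, and 458 and 675 in KO #8. The groups did not overlap, with KO #4 lowest and KO #8 between. The log2 change was -1.87 ± 0.20 (SE, n = 2 against 2) in KO #4 (limma, adjusted p = 0.00232) and -0.71 ± 0.20 in KO #8 (limma, adjusted p = 0.0485). *Tagln* had 449 and 402 in WT, 75.3 and 147 in KO #4, and 316 and 403 in KO #8. Only KO #4 stood apart, and WT and KO #8 overlapped. *Tagln* fell by 2.00 ± 0.28 on the log2 scale in KO #4 (limma, adjusted p = 0.00519), while the value in KO #8 was -0.25 ± 0.28 (limma, adjusted p = 0.632). The difference between the clones, KO #4 minus KO #8, was -1.16 for *Acta2* (limma, adjusted p = 0.0279) and -1.75 for *Tagln* (limma, adjusted p = 0.0197). These were the 2 members called of 8 in that contrast, in which 1.66% of all genes were called.

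The calls in NPCs rested on few libraries. Without WT library 1 the *Acta2* change in KO #4 was -1.64 (adjusted p = 0.0815) and that in KO #8 was -0.48 (adjusted p = 0.388). *Tagln* in KO #4 had an adjusted p of 0.106 without WT library 1 and of 0.0779 without WT library 2. In the same 2 fits only 6 and 16 genes of all those tested were called in KO #4, compared with 616 with all libraries. Without KO #8 library 1 the *Acta2* change in KO #8 was -0.43 (adjusted p = 0.0381). The *Acta2* call in KO #8 was also lost without WT library 2 (adjusted p = 0.0883) and without either KO #4 library (0.0979 and 0.0946), and with no filter (0.0897), a minimum of 50 (0.056), voom (0.0601) or WT alone (0.0869). The clone difference lost its call without either WT library (*Acta2* 0.0862 and 0.0826, *Tagln* 0.1 and 0.0976), without KO #4 library 1 (*Acta2* 0.236, *Tagln* 0.145) and, for *Acta2*, without KO #4 library 2 (0.222), with no filter (0.0644) or with voom (0.114).

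The other NPC members were not called. *Cnn1* had 42.6 and 34.4 normalized reads in WT, 13.5 and 20.9 in KO #4, and 44.1 and 46.1 in KO #8. The KO #4 libraries were below the others, with a log2 change of -1.14 ± 0.37 (limma, adjusted p = 0.102) that was called without KO #8 library 1 (adjusted p = 0.037) or 2 (adjusted p = 0.0335) and when KO #4 was fitted with WT alone (adjusted p = 0.0426). The *Cnn1* difference between the clones was -1.37 (limma, adjusted p = 0.107), and -1.40 (adjusted p = 0.0403) without KO #8 library 1. *Tpm2*, with 645 and 547 in WT, 581 and 512 in KO #4, and 514 and 598 in KO #8, overlapped between all groups. *Myl9* had 151 and 121 in WT, 118 and 101 in KO #4, and 89.1 and 182 in KO #8, where the pair alone spanned the other groups. Its clone difference was -0.22, and became -0.73 (adjusted p = 0.0442) without KO #8 library 1 and 0.29 without KO #8 library 2. *Myh11* was the one member with a positive value in KO #4, at 11.4 and 6.26 in WT, 24.1 and 18.8 in KO #4, and 11.7 and 5.76 in KO #8, with a log2 change of 1.24 ± 0.55 (limma, adjusted p = 0.242). *Lmod1* and *Actg2* were at 7.57 to 40.3 in every library, with overlapping groups.

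**Figure D2:**
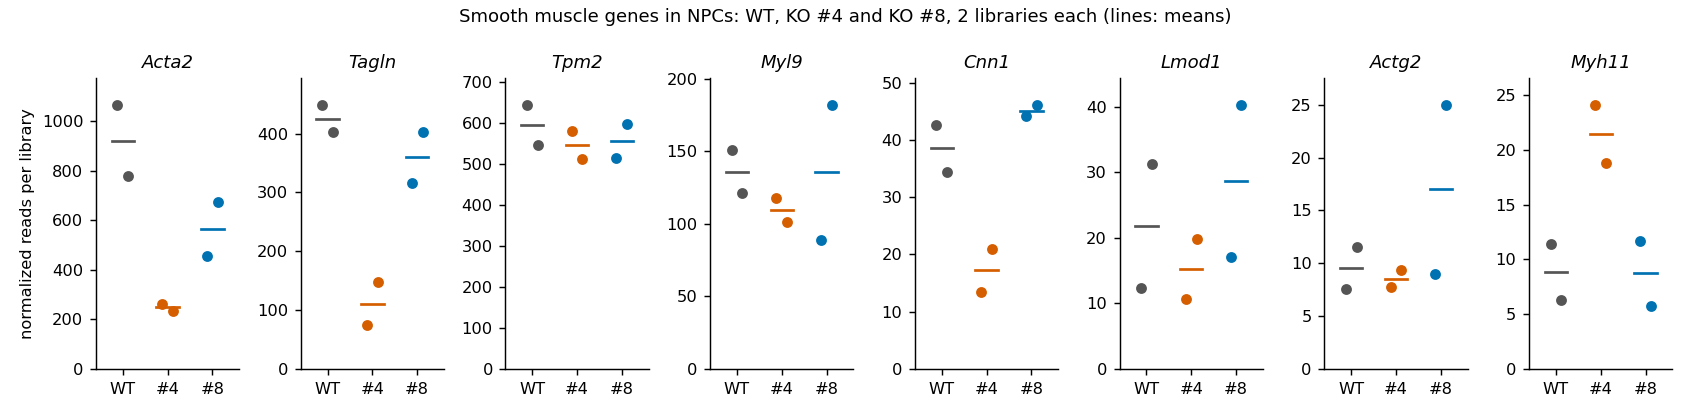
Normalized reads of the 8 recovered members in each NPC library of WT, KO #4 and KO #8; points are libraries and short lines are group means. *Acta2* and *Tagln* are lowest in both KO #4 libraries, whereas *Tpm2* overlaps between the groups.

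*Cald1* and *Smtn* were above the recoverable level in NPCs, with authors' means of 5008 and 5026 for *Cald1* and of 1110 and 1085 for *Smtn* in the KO #4 and KO #8 tables. Because the 2 tables share the WT libraries, the difference between their means, put on 1 scale, gives the difference between the clones. *Cald1* was higher in KO #4 than in KO #8 by 341 normalized reads (336 to 345, the range from the scale between the tables), which puts KO #8 at no more than 96.6% of KO #4. *Smtn* was higher in KO #4 by 131 (130 to 132). These ranges hold no replicate error, and no test was possible.

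Markers of other cell types moved in the NPC libraries. Of 6 neural progenitor markers, 3 were recovered (*Neurog1*, *Pax6* and *Sox1*), and their summed normalized reads were 336 to 434 in WT, 948 to 1245 in KO #4 and 844 to 1828 in KO #8. They do not stand for all 6, whose authors' means summed to 435 and 509 ppm in the KO #4 and KO #8 tables. *Nes*, not recovered, held 59.3% and 51.2% of that. The recovered cardiac markers, 11 of 12, summed to 458 to 574 in WT, 346 to 348 in KO #4 and 406 to 460 in KO #8. Of the 9 cardiac markers tested, 2 had a positive and 7 a negative log2 change in KO #4 (median -0.95). In KO #8 they were split, with 4 positive and 5 negative (median -0.14). *Myl2* (ventricular light chain) was listed at 0 in both NPC tables. Fibroblast and mesenchyme markers (4 of 10) summed to 281 to 295, 168 to 203 and 157 to 224. These lower sums do not hold for each marker. Of the 3 tested, 2 had a positive log2 change in each clone, with medians of 0.17 in KO #4 and 0.50 in KO #8. The 1 called, *Postn*, was lower in KO #8, where 11.5% of all genes were called. Endothelial markers (3 of 6) summed to 698 to 712, 1089 to 1113 and 624 to 1034. Skeletal muscle markers (4 of 5) summed to 59.5 to 62.5 in WT, 15.6 to 17.4 in KO #4 and 40.3 to 45.9 in KO #8. *Acta1*, the skeletal α-actin, held at least 96.3% of the authors' skeletal sum, and *Myf5* was listed at 0. Pluripotency markers (5 of 5) summed to 1225 to 1935, 1163 to 1256 and 1843 to 3280. The part of these other cells in the lower *Acta2* and *Tagln* was not tested.

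In CMs, all 3 tested members fell in KO #4, and their changes in KO #8 differed in direction. The background was 53.3% of all 8617 tested genes called in KO #4 and 23.2% in KO #8, so a called gene is common here. The median log2 change of the 3 was -1.62 in KO #4 and -0.02 in KO #8, beside -0.06 and -0.02 over all genes.

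*Actg2*, the γ-actin of gut and bladder smooth muscle, had 50.3 and 46.4 normalized reads in WT, 9.24 and 24.2 in KO #4, and 215 and 241 in KO #8. The 3 groups did not overlap, and the clones lay on opposite sides of WT. The log2 change was -1.62 ± 0.39 in KO #4 (limma, adjusted p = 0.00458) and 2.21 ± 0.39 in KO #8 (limma, adjusted p = 0.00237). Without KO #4 library 1 the KO #4 value was -0.97 (adjusted p = 0.0165). *Lmod1* had 260 and 282 in WT, 80 and 125 in KO #4, and 191 and 144 in KO #8. It was lower in both clones, with log2 changes of -1.43 ± 0.23 in KO #4 (limma, adjusted p = 0.000341) and -0.70 ± 0.23 in KO #8 (limma, adjusted p = 0.0468). The *Lmod1* call in KO #8 was lost without WT library 1 (adjusted p = 0.131) or 2 (0.196) and without KO #8 library 1 (0.0874) or 2 (0.287), as well as with a pseudocount of 0.5 (0.0544) or no filter on low reads (0.114).

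*Myh11* had 17.7 and 45.4 normalized reads in the WT CM libraries, 2.05 and 2.1 in KO #4, and 42.3 and 18.4 in KO #8. WT and KO #8 overlapped widely, and each KO #4 library held 2 reads. The fitted log2 change was -3.26 ± 0.60 in KO #4 (limma, adjusted p = 0.000902) and -0.02 ± 0.60 in KO #8 (limma, adjusted p = 0.984), and at so few reads the fitted value depends on the pseudocount. From the summed reads, 65 in WT against 4 in KO #4, the ratio of WT to KO #4 was 15 (95% exact interval 5.58 to 56.7, counting error only). The ratio of KO #8 to KO #4 was 14.9 (5.52 to 56.2), from 63 reads against 4. Reads of both mates of a pair appear to have been counted, since 2453 genes had 2 reads in a single library against 1825 with 1, so these reads may come from fewer fragments and the intervals are then too narrow.

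**Figure D3:**
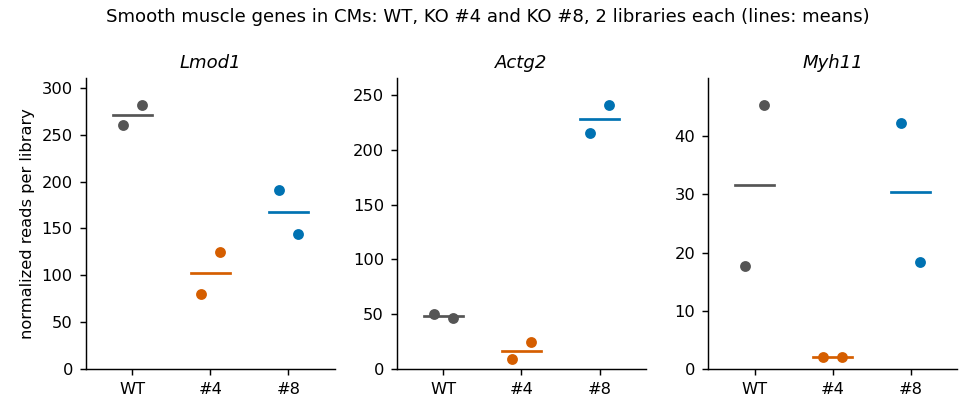
Normalized reads of the 3 recovered members in each CM library of WT, KO #4 and KO #8; points are libraries and short lines are group means. *Actg2* is above WT in KO #8 and below it in KO #4, and *Myh11* is near 2 in both KO #4 libraries.

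The clones differed directly in all 3 tested members in CMs, where 52.6% of all genes were called between the clones. KO #4 minus KO #8 was -3.83 for *Actg2* (limma, adjusted p = 1.05e-05), -3.24 for *Myh11* (limma, adjusted p = 0.000957) and -0.72 for *Lmod1* (limma, adjusted p = 0.0204). The *Lmod1* difference was not called without KO #4 library 1 (-0.40, adjusted p = 0.168) or without KO #8 library 1 (-0.52, adjusted p = 0.18), or with no filter (adjusted p = 0.055).

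Among the abundant members, *Acta2* had the largest difference in reads between the clones in CMs. Its authors' mean was 16249 in the KO #4 table and 21275 in the KO #8 table, and the KO #4 group mean minus the KO #8 group mean was -8855 normalized reads (-8956 to -8754). *Acta2* in KO #4 was therefore at most 78.6% of KO #8, while its place relative to WT could not be worked out. *Tagln*, with means of 6372 and 6645, differed by -172 (-204 to -141) in the same direction, and *Cald1*, with 11315 and 11875, by -452 (-509 to -396). The resulting upper limits, 98.7% for *Tagln* and 98% for *Cald1*, hold whatever the WT level is and do not give the size of the gap. *Tpm2* in KO #4 was at most 92% of KO #8, and *Smtn* at most 96%. For *Cnn1* and *Myl9* the order was the other way, with KO #4 minus KO #8 at 217 (213 to 221) and 81.1 (76.8 to 85.4). No replicate error enters these ranges and limits, and no test was possible.

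**Figure D4:**
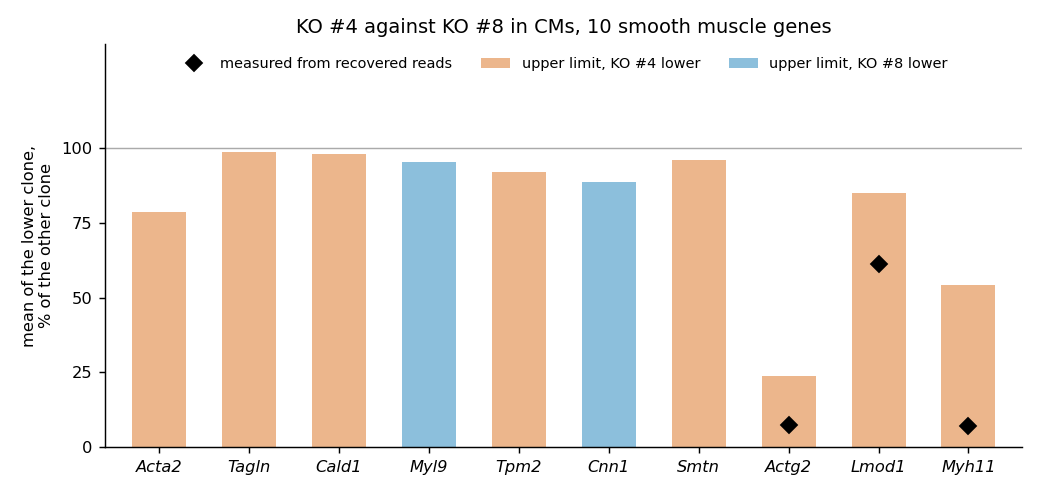
Mean of the clone with the lower value as a percentage of the other clone in CMs, for the 10 smooth muscle genes; bars are upper limits from the 2 tables, coloured by the lower clone, and diamonds are values from recovered reads. KO #4 is the lower clone for 8 genes and KO #8 for *Cnn1* and *Myl9*, and *Actg2* and *Myh11* lie furthest below 100%. The bars hold no replicate error and were not tested. Of the tested genes called between the clones in CMs, 44.1% were higher in KO #4.

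*Cnn1* and *Myl9* had 4 and 6 sets of reads that matched the CM means, of which 2 and 3 lay within the chi-square limit on replicate spread. The ranges below cover only those 2 and 3 sets. For *Cnn1* the group means were 1019 to 1097 normalized reads in WT, 840 to 918 in KO #4 and 623 to 702 in KO #8. Both clones were below WT in either of these, with a log2 ratio to WT of -0.38 to -0.15 in KO #4 and -0.81 to -0.54 in KO #8. For *Myl9* the means were 728 to 890 in WT, 950 to 1111 in KO #4 and 869 to 1031 in KO #8. KO #4 was above WT in each of the 3 (0.09 to 0.61), whereas KO #8 lay on either side (-0.04 to 0.50). The excluded sets may lie outside these ranges, and no test was made.

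Markers of other cell types differed strongly between the CM groups. Of 12 cardiac markers, 2 were recovered (*Myl2* and *Nppa*), and they summed to 946 to 1166 in WT, 1.05 to 9.24 in KO #4 and 192 to 227 in KO #8. Over all 12, the authors' means summed to 1514 and 2237 ppm in the KO #4 and KO #8 tables, with *Myh7* the highest. Endothelial markers (2 of 6) summed to 1062 to 1397 in WT, 13.7 to 22.6 in KO #4 and 629 to 678 in KO #8. Over all 6, the authors' means summed to 537 and 862 ppm, with *Kdr* the highest. The recovered markers therefore do not stand for either list. Fibroblast and mesenchyme markers (3 of 10) summed to 296 to 481 in WT, 55.4 to 86.2 in KO #4 and 1472 to 1824 in KO #8. KO #8 was thus highest in the sum of these 3 markers, and the rest of the 10 were not recovered. Pluripotency markers (4 of 5) summed to 1059 to 1344 in WT, 2382 to 3282 in KO #4 and 439 to 462 in KO #8. In KO #4, 3 of these 4 were called higher and 1, *Klf4*, lower, where 53.3% of all genes were called. In KO #8 all 4 were called lower, where 23.2% of all genes were called. *Pou5f1* was not recovered and held 54.2% and 57.1% of the authors' pluripotency sum in the KO #4 and KO #8 tables. Skeletal muscle markers other than *Acta1* (4 of 5) summed to at most 12.1 in any library. *Acta1* was not recovered and held 99% and 99.3% of the authors' skeletal sum of 48.8 and 50 ppm in the KO #4 and KO #8 tables. Of the neural progenitor markers 1 of 6 was recovered, with at most 2.1, but over all 6 the authors' mean was 776 ppm in the KO #4 table and 272 ppm in the KO #8 table, with *Nes* the highest. The part of these other cells in the changes of the members was not tested.

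The KO #4 effect on *Myh11* differed between the CM and NPC cultures. The log2 change in CMs minus that in NPCs was -4.49 ± 0.85 (limma, adjusted p = 0.000883), with a negative value in CMs and a positive one in NPCs. It was the 1 member called of 3 tested, against a background of 33.3% of 7938 genes. In KO #8, none of the 3 members was called, where the background was 15.5%. *Actg2* had an unadjusted p of 0.0464 in KO #8 (1.57 ± 0.72, limma, adjusted p = 0.168), and the other 2 were above 0.05. The *Actg2* difference in KO #8 had an adjusted p of 0.0464 without NPC library 2 of KO #8 and was 0.88 (adjusted p = 0.436) without NPC library 1. In KO #4 (-1.50, limma, adjusted p = 0.128) it had an adjusted p of 0.0421 without CM library 2 of KO #4 and was -0.85 (adjusted p = 0.42) without CM library 1.

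In primed cells, *Acta2* and *Cald1* were lower in KO #8. Of the 7 tested members, 2 fell and 5 were not called in KO #8, where the background was 14.2% of 8933 genes. In KO #4 none of the 7 was called by limma and 3 had an unadjusted p under 0.05 (*Acta2*, *Cald1* and *Tpm2*), against a background of 19.1%. *Acta2* had 30.4 and 32.9 normalized reads in WT, 6.11 and 24.6 in KO #4, and 11.1 and 4.57 in KO #8. All 4 KO libraries were below both WT libraries. The log2 change was -1.99 ± 0.56 in KO #8 (limma, adjusted p = 0.0106) and -1.27 ± 0.56 in KO #4 (limma, adjusted p = 0.104). The KO #4 value rested on 1 of its 2 libraries, being -0.35 (adjusted p = 0.763) without library 1 and -2.20 (adjusted p = 0.0118) without library 2, and it was called with limma voom (adjusted p = 0.0446). The KO #8 call was lost without WT library 1 (adjusted p = 0.0741) or 2 (0.11), without KO #8 library 2 (0.16), and without the filter on low reads (0.154).

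*Cald1* had 495 and 485 in the WT primed libraries, 428 and 393 in KO #4, and 367 and 340 in KO #8. The groups did not overlap, with KO #8 lowest. Its change of -0.47 ± 0.10 in KO #8 (limma, adjusted p = 0.00107) stayed called in every alternative, between -0.52 and -0.42, and the KO #4 value was -0.26 ± 0.10 (limma, adjusted p = 0.0752). *Tpm2* was at 369 to 452 and *Smtn* at 767 to 911 normalized reads in all 6 libraries, with changes no further from 0 than 0.22. *Tagln* had 55.2 and 34.9 in WT, 57 and 62.6 in KO #4, and 43.3 and 52.5 in KO #8, so that KO #4 lay just above the other groups (0.44 ± 0.28, limma, adjusted p = 0.304). *Cnn1* (36.1 to 54.9) overlapped between all groups. *Myl9* had 41.8 and 27.9 in WT, 18.3 and 46.2 in KO #4, and 51.4 and 62.8 in KO #8, so that KO #8 lay above both other groups. Its KO #8 value was 0.72 ± 0.35 (limma, adjusted p = 0.176). No member was called between the clones, where the background was 2.91%, and *Myl9*, *Cald1* and *Tpm2* had an unadjusted p under 0.05. *Myl9* (-0.94, limma, adjusted p = 0.167) was -1.58 (adjusted p = 0.00741) without KO #4 library 2 and -0.29 (adjusted p = 0.841) without KO #4 library 1. *Myh11*, *Lmod1* and *Actg2* were too low to test.

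In naïve cells *Tagln* was the one member tested, with 28.2, 23 and 23 normalized reads in WT, 36.1, 39.6 and 43.8 in KO #4, and 42.6, 28.8 and 63 in KO #8. Every KO library was above every WT library. The log2 change was 0.77 ± 0.28 in KO #8 (limma, adjusted p = 0.0457) and 0.67 ± 0.28 in KO #4 (limma, adjusted p = 0.0804), beside a background of 19.3% and 21.4% of 2050 genes called and of 3.07% between the clones, in which *Tagln* was not called (unadjusted p = 0.724). The KO #8 call did not last. It was kept without KO #8 library 2, but its adjusted p was 0.0513 to 0.301 with any other library left out, the highest without KO #8 library 3. Scaling by total reads, which moved the median of all genes in KO #8 from 0.10 to -0.01, gave 0.66 (adjusted p = 0.0898). The other 5 recovered members, *Acta2*, *Cnn1*, *Myl9*, *Myh11* and *Lmod1*, held at most 15 reads in any naïve library. *Cald1* (means of 2343 and 2531), *Tpm2* (349 and 370) and *Smtn* (1333 and 1290) were too abundant to recover, and KO #4 minus KO #8 was -368 (-370 to -366) for *Cald1*, -40.3 (-40.6 to -40) for *Tpm2* and 89 (88.1 to 90.3) for *Smtn*. No replicate error enters these ranges, and no test was possible.

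**Figure D5:**
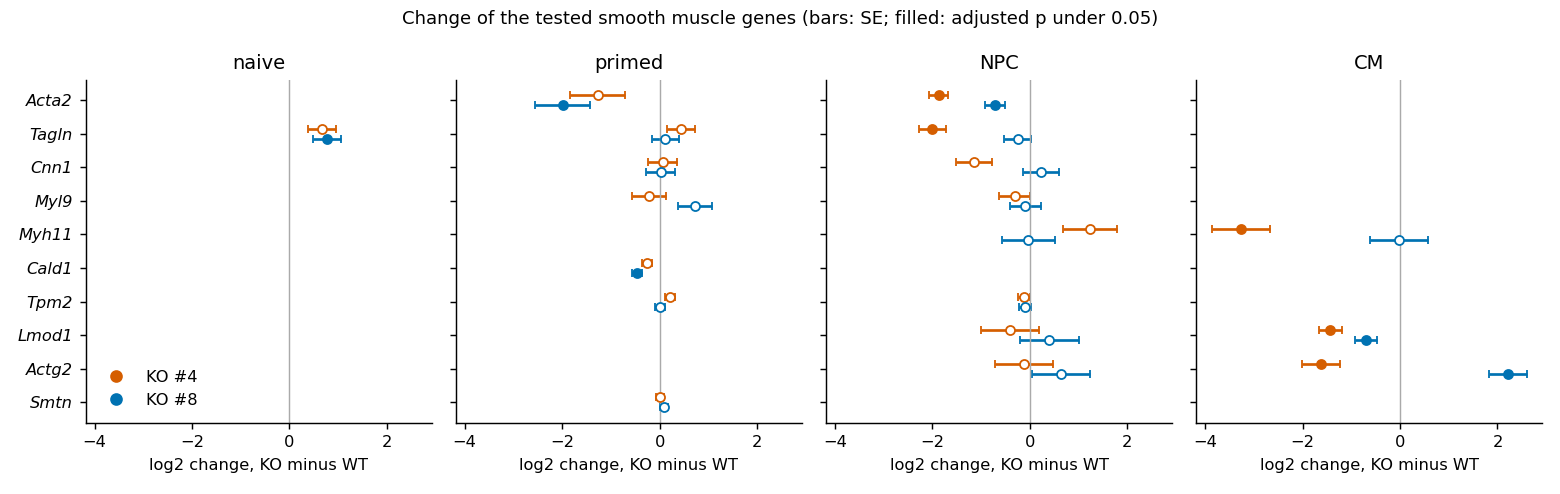
Log2 change of each tested smooth muscle gene against WT in KO #4 and KO #8, in naïve cells, primed cells, NPCs and CMs; bars are standard errors and filled points have an adjusted p under 0.05. Among the NPC values, *Acta2* and *Tagln* in KO #4 lie furthest below 0. Over all stages the lowest value is *Myh11* in CMs of KO #4 (-3.26), and *Actg2* lies on opposite sides of 0 in CMs.

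Of the regulators, myocardin had the largest measured difference. *Myocd* had 7.57 and 6.26 normalized reads in the WT NPC libraries, 15.4 and 24 in KO #4, and 110 and 40.3 in KO #8. The groups did not overlap. It rose in KO #8 by 3.10 ± 0.53 (limma, adjusted p = 0.00734), while KO #4 had 1.36 ± 0.53 (limma, adjusted p = 0.173). The KO #8 call was lost without WT library 1 (adjusted p = 0.0904) or 2 (0.0759), the KO #4 value was called without KO #8 library 2 (adjusted p = 0.0349), and the clone difference of -1.74 (limma, adjusted p = 0.147) became -2.45 (adjusted p = 0.0065) in that same fit. In NPCs *Acta2* was lower in KO #8 while *Myocd* was higher. In CMs, *Myocd* was too abundant to recover, with authors' means of 588 and 1012, and KO #4 minus KO #8 was -793 normalized reads (-797 to -788), which puts KO #4 at no more than 59.7% of KO #8. *Srf* in KO #4 was at most 96.9% of KO #8 in CMs, *Mrtfa* at most 96.2% and *Mrtfb* at most 87.5%. No replicate error enters these CM values, and they were not tested. In primed cells *Mrtfb* was at 405 to 425 in WT, 491 to 511 in KO #4 and 512 to 543 in KO #8, without overlap between WT and either clone. It rose by 0.27 ± 0.10 in KO #4 (limma, adjusted p = 0.0411) and 0.34 ± 0.10 in KO #8 (limma, adjusted p = 0.0104). The KO #4 call was lost without any 1 of the WT or KO #4 libraries (adjusted p of 0.0833 to 0.218), and the KO #8 call without WT library 2 (0.107) or KO #8 library 1 (0.112). With no filter the values were 0.0873 and 0.0505. *Mrtfa* was not called in primed cells.

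The wider list of SRF regulators, targets and contractile genes held 36 genes, none of them members. In CMs, 8 were tested, and 7 fell and 1 rose in KO #4, where 53.3% of all genes were called, with a median of -1.22 beside -0.06 over all genes. Those that fell were *Fhl2*, *Filip1l*, *Itga8*, *Kcnmb1*, *Ppp1r12b*, *Ppp1r14a* and *Synpo2*, and *Mylk*, the kinase that phosphorylates the light chain, rose by 2.43 ± 0.17 (limma, adjusted p = 7.76e-07). In KO #8, 3 fell, 1 rose (*Itga8*) and 4 were not called, where 23.2% of all genes were called, with a median of -0.21. *Synpo2*, an actin-bundling Z-disc protein, was at 414 to 586 normalized reads in WT, 29.8 to 58.9 in KO #4 and 227 to 304 in KO #8. It fell by 3.52 ± 0.29 in KO #4 (limma, adjusted p = 2.83e-06) and by 0.90 ± 0.29 in KO #8 (limma, adjusted p = 0.0475). *Filip1l* changed by -1.02 and -0.39 in KO #4 and KO #8 (limma, adjusted p = 2.75e-05 and 0.0342). *Ppp1r12b*, a myosin phosphatase subunit, changed by -0.74 and -0.43 (limma, adjusted p = 0.00021 and 0.0173). In KO #8, *Synpo2* and *Filip1l* lost their calls without any 1 of the WT or KO #8 libraries (*Synpo2* 0.0813 to 0.294, *Filip1l* 0.0781 to 0.193), and *Ppp1r12b* without WT library 1 (0.0693) or KO #8 library 1 (0.0565) or 2 (0.129).

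In NPCs, 14 of the 36 were tested. In KO #4, 1 rose (*Mylk*), 2 fell (*Itga8* and *Tgfb1i1*) and 11 were not called, where 7.35% of all genes were called, with a median of 0.03 beside -0.02 over all genes. In KO #8, 3 rose, *Fhl2* and *Myocd* among them, 2 fell (*Jph2* and *Tgfb1i1*) and 9 were not called, where 11.5% of all genes were called, with a median of 0.30. *Tgfb1i1*, which encodes the focal adhesion protein Hic-5, was at 574 to 580 in WT, 327 to 378 in KO #4 and 312 to 383 in KO #8. It changed by -0.71 ± 0.14 in KO #4 (limma, adjusted p = 0.0172) and -0.74 ± 0.14 in KO #8 (limma, adjusted p = 0.0106). Its KO #4 call was lost without any 1 of the WT or KO #4 libraries (adjusted p of 0.105 to 0.175), and its KO #8 call without WT library 1 (0.12) or 2 (0.0955).

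In primed cells, 16 were tested. In KO #4, 2 rose (*Ccn2* and *Mrtfb*), 2 fell, *Csrp1* among them, and 12 were not called, where 19.1% of all genes were called, with a median of -0.06 beside -0.03 over all genes. In KO #8, 3 rose (*Ccn2*, *Mrtfb* and *Synpo2*), 1 fell (*Csrp1*) and 12 were not called, where 14.2% of all genes were called, with a median of 0.01. *Ccn2*, a secreted matricellular protein, was at 241 to 261 normalized reads in WT, 402 to 450 in KO #4 and 350 to 404 in KO #8. Its change was 0.76 ± 0.11 in KO #4 (limma, adjusted p = 2.96e-06) and 0.58 ± 0.11 in KO #8 (limma, adjusted p = 0.000299). *Csrp1*, a LIM protein of the actin cytoskeleton, was at 627 to 628 in WT, 418 to 487 in KO #4 and 475 to 483 in KO #8, and fell by 0.47 ± 0.09 and 0.39 ± 0.09 (limma, adjusted p = 0.000258 and 0.00326). In naïve cells 1 of the 36 was tested (*Synpo2*), and it was called in neither clone by limma, with unadjusted p of 0.0367 in KO #4 and 0.192 in KO #8.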

How the data were processed

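mRNA-seq of 27 libraries was trimmed with Trim Galore 0.6.7, aligned to mm9 with HISAT2 2.2 and counted per gene with featureCounts (paired-end and strand settings not given in the sources used here), and normalized with the median-of-ratios size factors of DESeq2 1.46.0 by the authors. Each of the 8 deposited tables holds, per gene, 1 mean normalized read count over WT and 1 clone (a normalized signal, 10 significant digits). Its 5 further columns hold the authors' own comparison (fold change, its standard error, Wald statistic, p-value and adjusted p-value), and were not used. Groups came from the labels. The members and gene lists were chosen with earlier results of these data known.

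Because both tables of a stage share the WT libraries, whole reads per library were solved from the 2 means, with size factors found from genes holding 1 or 2 reads in a single library. A solution was accepted if unique, or if the next one was worse by a chi-square over 12 (a spread between libraries of 30% was assumed). This worked below a mean of 1000 (60 in naïve cells), for 88% to 96.9% of genes with a mean of at least 10 under those limits, and genes with uneven replicates may be missed more often. The solver and the fit were tested on simulated data, in which the spread between libraries was set below that 30%. Those simulations do not show how either does on more uneven replicates. Normalized reads are reads divided by the size factor. Tests used limma 3.58.1 (R 4.3.3) with a mean-variance trend on log2(normalized reads + 1), 1 fit per stage and 1 fit over CMs and NPCs, a minimum mean of 10, and Benjamini-Hochberg adjustment over all tested genes. Fold changes on this scale understate changes of low genes. Clone differences of unrecovered genes were taken from the scaled means, which on recovered genes erred by at most 0.283% of the mean. Named were all members, *Srf*, *Myocd*, *Mrtfa* and *Mrtfb*, up to 4 genes per stage of the 36-gene list with the largest mean change among those called in both clones in 1 direction, and the 5 genes most like the members in CMs. Genes listed in counts are named besides, except 1 that is not reported here. Of 91 names wanted, all 91 were found, 4 under newer symbols. Alternatives were pseudocounts of 0.5 and 5, no filter or a minimum of 50, scaling by total reads, limma voom, each clone fitted with WT alone, and leaving out each library. The authors tested with DESeq2. Here limma was used on log values of the recovered reads, with voom on the reads themselves as an alternative.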

Additional observations from a re-analysis of the deposited data

Results flagged for a closer look

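In all, 6 differences between groups passed a test of the difference itself. Between the clones, KO #4 minus KO #8, these were *Acta2* in NPCs (-1.16, limma, adjusted p = 0.0279), *Tagln* in NPCs (-1.75, adjusted p = 0.0197), *Actg2* in CMs (-3.83, adjusted p = 1.05e-05), *Myh11* in CMs (-3.24, adjusted p = 0.000957) and *Lmod1* in CMs (-0.72, adjusted p = 0.0204), all on the log2 scale. Between cultures, the KO #4 change of *Myh11* in CMs minus that in NPCs was -4.49 (limma, adjusted p = 0.000883). *Actg2* was above WT in both KO #8 libraries and below WT in both KO #4 libraries. *Myh11* rested on 2 reads in each KO #4 library. Groups of 2 and 3 libraries were too small to look for single outlying libraries.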

How the results depend on the processing

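Called changes that remained called in every alternative that tested them were 8 of 17: *Actg2* in CMs in KO #4 (-2.27 to -0.97), in KO #8 (2.13 to 2.29) and between the clones (-4.48 to -3.18), *Lmod1* in CMs of KO #4 (-1.75 to -1.11), *Myh11* in CMs of KO #4 (-3.91 to -2.26), between the clones (-3.81 to -2.23) and for CMs minus NPCs (-5.15 to -3.21), and *Cald1* in primed KO #8 (-0.52 to -0.42). *Myh11* was below a minimum mean of 50 and so was not tested under it in any of the 3, which left 2 members called in CMs of KO #4, 2 between the clones and 0 for CMs minus NPCs. The other 9 lost their call in at least 1 alternative. Of the changes that were never called, 21 did not keep their sign, and the *Myl9* difference between the NPC clones went from -0.22 to 0.29 without KO #8 library 2 and to -0.73 without KO #8 library 1. No paired analysis was possible because the recovered libraries cannot be tied to the replicate numbers of the labels. With 2 libraries per group, leaving 1 out leaves a lone library that is assumed to vary like the others. Scaling by total reads moved the median of all genes by -0.11 in naïve KO #8 against WT and by 0.10 between the naïve clones, and the share of calls that were higher from 72.2% to 60.4% and from 15.9% to 27.9%. Abundant members could not be tested, and low ones rest on few reads.

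Counts of members called moved as follows. Naïve KO #8 went from 1 to 0 with no filter, total scaling, voom or WT alone. Primed KO #4 went from 0 to 1 with voom, and primed KO #8 from 2 to 1 with no filter or a minimum of 50. NPC KO #8 went from 1 to 0 with no filter, a minimum of 50, voom or WT alone, and the NPC clone difference from 2 to 1 with no filter or voom. CM KO #8 went from 2 to 1 with a pseudocount of 0.5 or no filter. With 1 library left out, the counts ranged from 0 to 1 (naïve KO #8, primed KO #4, primed clone difference, NPC KO #8, and CMs minus NPCs in KO #8), from 1 to 2 (primed KO #8, CM KO #8, and CMs minus NPCs in KO #4), from 0 to 3 (NPC KO #4), from 0 to 4 (NPC clone difference), and from 2 to 3 (CM clone difference). Of the 36-gene list, no filter gave 1 call in naïve KO #4, 2 in each primed clone and 1 in CM KO #8, WT alone gave 7 in NPC KO #4, and a minimum of 50 gave 3 in NPC KO #8. With 1 library left out, this list had 2 to 3 (primed KO #4), 2 to 4 (primed KO #8), 0 to 8 (NPC KO #4), 0 to 9 (NPC KO #8), 7 to 8 (CM KO #4) and 0 to 4 (CM KO #8) genes called.

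Over all genes, a minimum of 50 left 26, 22 and 4 called in naïve cells (KO #4, KO #8, clone difference), because few recovered naïve genes pass it. No filter gave 854, 557 and 34 in primed cells and 57 for the NPC clone difference. Voom gave 327, 628 and 57 in NPCs, and WT alone 1553 in NPC KO #4 and 561 in NPC KO #8. With 1 library left out, KO #4, KO #8 and the clone difference had 315 to 460, 263 to 383 and 17 to 111 in naïve cells, 967 to 1691, 662 to 1443 and 103 to 244 in primed cells, 6 to 1554, 78 to 1951 and 6 to 1353 in NPCs, and 3805 to 4353, 779 to 2050 and 3442 to 4640 in CMs. For CMs minus NPCs the ranges were 2039 to 2902 (KO #4) and 797 to 1411 (KO #8). In NPCs the counts of KO #4 and KO #8 were lowest without WT library 1 (6 and 78), and the KO #8 count was highest without KO #8 library 1 (1951). The causes were not tested.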

Other observations

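The 5 genes, none of them members, whose log2 values over the 6 CM libraries were most like the mean of the 3 recovered members (*Myh11*, *Lmod1* and *Actg2*) were *Wipi1* and *Tmem120b* (Pearson r of 0.996 each), *Arl16*, *Ech1* and *Eva1b* (0.995 each), out of 5400 genes with a mean of at least 100. *Wipi1* was at 485 to 564 normalized reads in WT, 160 to 206 in KO #4 and 475 to 562 in KO #8. *Eva1b* was at 466 to 548, 138 to 219 and 508 to 559. All 5 were lowest in KO #4. The 6 libraries are 3 pairs of replicates, so r mainly describes the order of 3 groups and no p is given.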
